A study of Homo sapiens with 12 samples.

Results

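The genes described here encode the enzymes that add the terminal and modifying groups of glycans: the sialyltransferases, the fucosyltransferases, the carbohydrate and heparan sulfate sulfotransferases, and the N-acetylgalactosaminyl- and glucuronyltransferases that prepare their acceptors. They were chosen by gene symbol alone (ST3GAL, ST6GAL, ST6GALNAC, ST8SIA, FUT, CHST, B4GALNT, B3GAT, HS3ST and HS6ST genes), with pseudogenes and non-coding genes of the same name left out. This gave 63 genes of the 55765 symbols in the count tables. The rule uses names and no measured value.

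These enzymes work in the Golgi apparatus and use activated donors: CMP-sialic acid, GDP-fucose and the sulfate donor PAPS. In nervous tissue their products include polysialic acid, a long sialic acid polymer carried mainly by the adhesion molecule NCAM1, the gangliosides, which are sialylated glycolipids, the Lewis X and HNK-1 epitopes, and the sulfated chains of chondroitin, dermatan and heparan sulfate proteoglycans. Neuroblastoma cells are known for polysialic acid and for the ganglioside GD2.

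The cells were SH-SY5Y, a human neuroblastoma line cloned from the bone marrow-derived line SK-N-SH, differentiated in every group with all-trans retinoic acid (ATRA, 10 μM) for 7 days. Total RNA was sequenced in 12 libraries from 2 experiments. In the co-treatment experiment, 3 libraries had H2O2 together with ATRA for all 7 days and 3 controls had ATRA alone. In the pre-treatment experiment, 3 libraries had H2O2 for 72 h before ATRA began and 3 controls had no H2O2. The H2O2 dose is 10 mM in the text deposited with the series and 10 μM in the methods of the study. All libraries come from the same line, and nothing states whether the replicates of a group were separate cultures, so the tests measure the spread between these libraries.

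The libraries held 27576276 to 98287391 reads on genes. Pre-treatment controls 1 and 2 stood apart in make-up, with 0.800 and 0.830 reads outside genes for every read on a gene, against 0.200 in control 3 and 0.263 to 0.462 in the other 9 libraries. The co-treatment controls had 0.284 to 0.37. Control 3 was unlike controls 1 and 2 of its own experiment, so the pre-treatment results are given with and without it. Which of these controls is typical cannot be settled here. The part of this gap in the results was not tested. The 5 neuronal and 5 noradrenergic marker genes checked were above 1 CPM (counts scaled to library size, with the TMM factors of edgeR over all 12 libraries) in every library. The neuronal markers summed to 1550 to 1560 CPM in the co-treatment controls and 1170 to 1510 with H2O2, and to 1300 to 1580 and 1090 to 1290 CPM in pre-treatment. The noradrenergic markers summed to 1420 to 1980 CPM in the co-treatment controls and 1060 to 1440 with H2O2, and to 1240 to 2090 and 817 to 1150 CPM in pre-treatment. In both lists the H2O2 sums were lower, with an overlap of the groups only for the noradrenergic markers in co-treatment. Leukocyte markers summed to at most 0.725 CPM, with CD3E at 0 in 10 of the 12 libraries. The 4 fibroblast markers summed to 4.10 to 5.13 CPM in the co-treatment libraries, to 3.29 to 5.05 in the pre-treatment controls and to 5.05 to 9.17 in the pre-treated libraries. DCN had 0.599, 0.0876 and 0.610 CPM in pre-treatment controls 1 to 3 and 3.56, 2.59 and 1.67 CPM after H2O2. COL1A2, near 0 throughout, had 0.0152 to 0.0219 CPM in these controls and 0.0735 to 0.251 CPM after H2O2. The groups overlapped for COL1A1 and LUM. The part of these shifts in the results was not tested.

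SH-SY5Y cells transcribed a limited set of these enzymes. Over the 12 libraries, 28 of the 63 genes had a mean above 10 CPM, 12 lay between 1 and 10 CPM and 23 were below 1 CPM. HS3ST6 was listed at 0 in every library. To compare genes, CPM was divided by the exon length of each gene in kilobases, with the exons of all its annotated transcripts joined. On that scale B3GAT3, which builds the linker of proteoglycan chains, was highest with a mean of 30.3, followed by B4GALNT4 at 21.4, HS6ST1 at 18.8, CHST14 at 18.1 and ST8SIA3 at 13.5 CPM per kilobase.

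**Figure D1:**
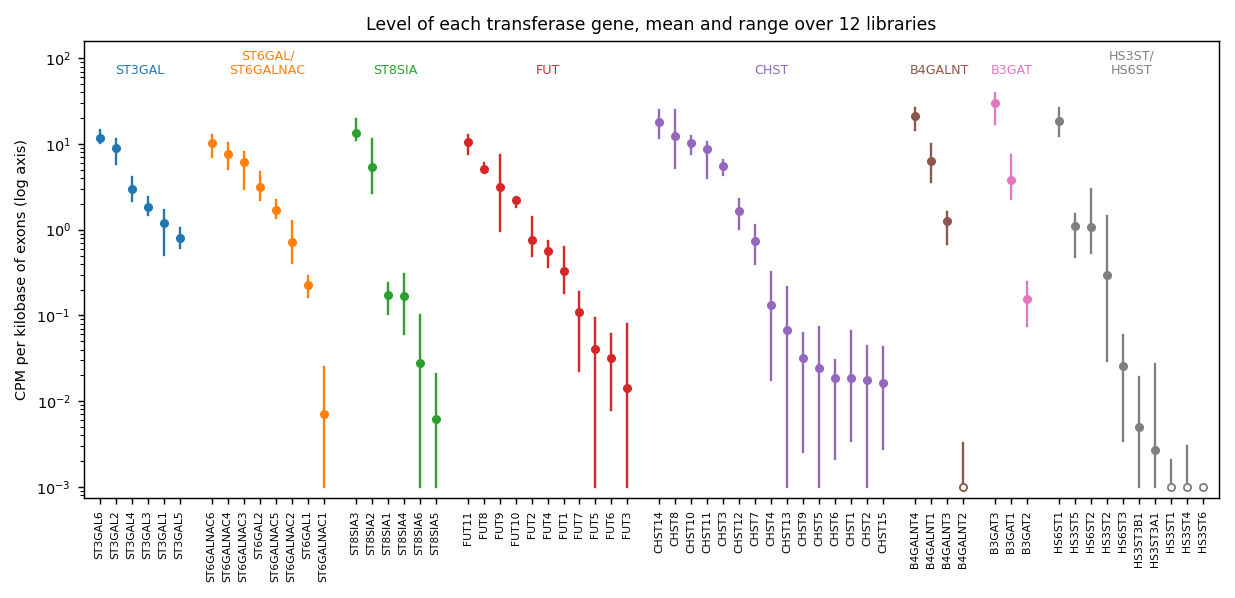
Level of the 63 genes by family, as CPM per kilobase of exons on a log axis, with points at the mean and lines from the lowest to the highest of the 12 libraries; values below 0.001 are drawn at 0.001, with open points where the mean is below it. Genes of 1 family differed widely in level, and B3GAT3 had the highest mean, 30.3.

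Among the sialyltransferases that cap galactose (ST3GAL), ST3GAL6 had 11.7, ST3GAL2 8.86 and ST3GAL4 2.96 CPM per kilobase. ST3GAL5, the GM3 synthase that opens the ganglioside pathway, had the lowest mean of the 6 on this scale, at 0.793. That rank depends on its joined exon length of 16.3 kb: undivided, ST3GAL5 had 12.9 CPM and ST3GAL1 10.5 CPM. In the ST6GAL and ST6GALNAC group, ST6GALNAC6 had 10.2, ST6GALNAC4 7.74 and ST6GALNAC3 6.22 CPM per kilobase, while ST6GAL1, the main N-glycan enzyme of many tissues, had 0.225. Of the enzymes that extend sialic acid with sialic acid (ST8SIA), ST8SIA3 had 13.5 and ST8SIA2 5.38 CPM per kilobase. ST8SIA1, the GD3 synthase, followed at 0.173. The 2 polysialyltransferases were thus unequal: ST8SIA2 had 5.38 and ST8SIA4 0.170 CPM per kilobase, and the lowest library of ST8SIA2, at 2.70, was above the highest of ST8SIA4, at 0.301.

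FUT11 led the fucosyltransferases with 10.6 CPM per kilobase, ahead of FUT8, the core fucosyltransferase of N-glycans, at 5.07 and FUT9, which makes Lewis X in brain, at 3.13. FUT8 lay between 4.58 and 6.01 in all 12 libraries. The closely related FUT3, FUT5 and FUT6 had 0.0143 to 0.0402 CPM per kilobase. Reads that match several such near-identical genes may be left out as not unique, as for CHST5 and CHST6 or HS3ST3A1 and HS3ST3B1. Among the CHST genes, CHST14, the dermatan 4-O-sulfotransferase, had 18.1, CHST8, which sulfates N-acetylgalactosamine on glycoproteins, 12.3, and CHST10, the HNK-1 sulfotransferase, 10.2 CPM per kilobase, whereas CHST4 and 7 further genes of the 15 had at most 0.134. B4GALNT1, the GM2 and GD2 synthase, had 6.26 and B4GALNT3 1.25 CPM per kilobase. B3GAT1, which adds the glucuronic acid of HNK-1, had 3.76 and its homologue B3GAT2 0.154. After HS6ST1, HS3ST5 had 1.11 and HS6ST2 1.07 CPM per kilobase.

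The co-treatment experiment asked what H2O2 present during differentiation changed. CHST8 rose and FUT9 fell, and these were the 2 members past both limits, an FDR below 0.05 and a log2 fold change beyond 0.6 in either direction. Of 48 members tested, 1 was called higher and 1 lower, 2.08% in each direction, against 0.335% and 0.263% of the 22089 genes tested.

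CHST8, at chr19:34112859-34264414 on the plus strand (GRCh37), had 26.2, 26.2 and 21.8 CPM in the controls and 75.7, 57.4 and 72.2 CPM with H2O2. The lowest treated library was above the highest control by a wide margin. The mean went from 24.7 ± 2.54 to 68.4 ± 9.71 CPM (SD, n = 3), a fitted log2 fold change of 1.47 ± 0.14 (SE), or 2.77-fold, with an adjusted p of 0.00111 (edgeR quasi-likelihood test, Benjamini-Hochberg). In bulk RNA, fewer cells of a kind and less RNA per cell cannot be told apart, here and below. CHST8 acts on the LacdiNAc disaccharide, best known from pituitary hormones, and the enzymes that make that acceptor are B4GALNT3 and B4GALNT4.

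FUT9, at chr6:96463850-96663488 on the plus strand, had 60.6, 48.1 and 49.9 CPM in the controls and 19.8, 21.0 and 13.4 CPM with H2O2. All 3 treated libraries were lower than each control. The mean went from 52.8 ± 6.75 to 18.1 ± 4.08 CPM (SD, n = 3), a log2 fold change of -1.55 ± 0.18 (SE), or 2.92-fold lower, with an adjusted p of 0.00184 (edgeR). UFL1-AS1, which overlaps FUT9 on the other strand, had 1 to 19 reads in a library. Both calls were lost when the spread was estimated over both experiments: in 1 fit over all 12 libraries the adjusted p of CHST8 was 0.0842 and that of FUT9 0.461 (edgeR; over all 17 alternatives 1.24e-19 to 0.0842 and 1.69e-20 to 0.461). When pre-treatment control 3 was left out of that fit, a choice made after its result was seen, both were called again, at 0.00248 and 0.0105.

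**Figure D2:**
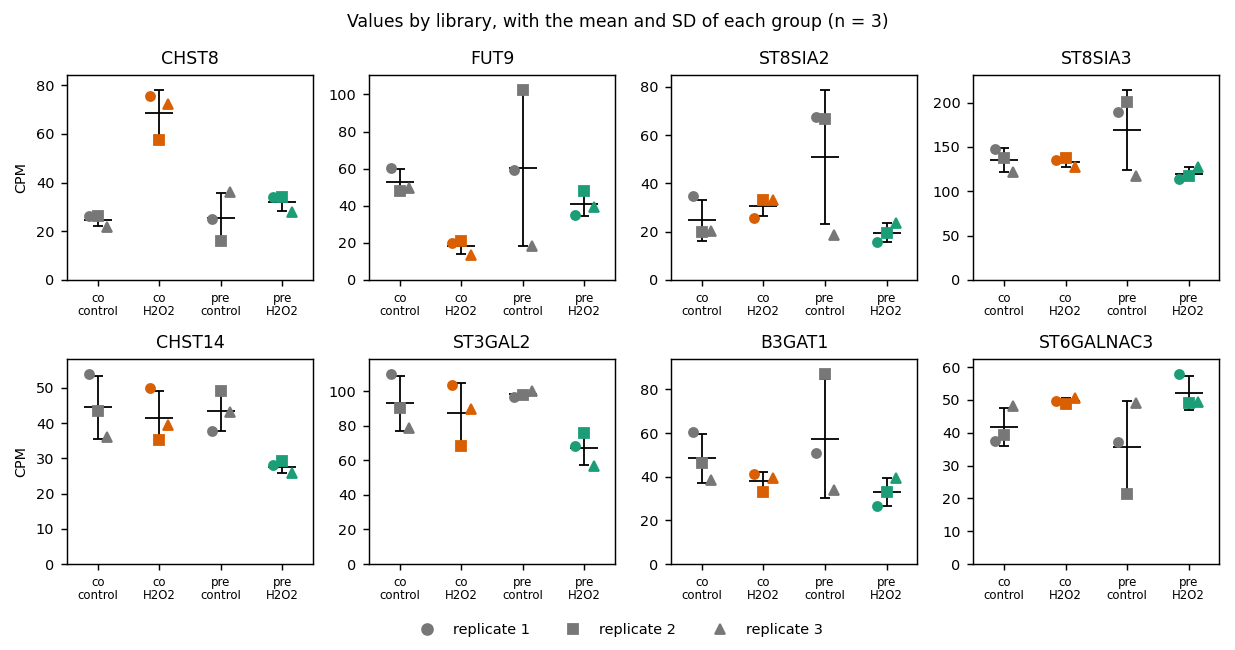
CPM of 8 members in each of the 12 libraries, with the mean and SD of each group (n = 3 per group) as bars; replicate numbers are shown by symbol. CHST8 rises and FUT9 falls with H2O2 in co-treatment, and pre-treatment control 3 lies beside the treated libraries for ST8SIA2, ST8SIA3, B3GAT1 and ST6GALNAC3 but beside the other controls for CHST14 and ST3GAL2.

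The sequences before the starts of CHST8, FUT9 and ST8SIA3 are shown. CHST8 and FUT9 were called in co-treatment. For ST8SIA3 the change differed between the experiments when pre-treatment control 3 was left out. Members that passed only the pre-treatment test without control 3 are not shown. They are the 250 bases before each RefSeq start (GRCh38.p14), 5′ to 3′ on the gene's strand. Of the 63 members, 49 had an entry in the RefSeq promoter table, CHST8 with 2 starts. ST8SIA2, whose change also differed between the experiments without control 3, had no entry. Capitals mark GC boxes, GGGCGG on either strand, the only one of 5 searched motifs with a match here.
CHST8, chr19:33621703-33621952, plus strand: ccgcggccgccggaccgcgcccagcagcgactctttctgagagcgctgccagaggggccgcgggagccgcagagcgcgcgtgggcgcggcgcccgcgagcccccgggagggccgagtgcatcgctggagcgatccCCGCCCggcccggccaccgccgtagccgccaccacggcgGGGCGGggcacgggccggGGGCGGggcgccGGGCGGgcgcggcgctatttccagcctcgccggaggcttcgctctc
CHST8, chr19:33684278-33684527, plus strand: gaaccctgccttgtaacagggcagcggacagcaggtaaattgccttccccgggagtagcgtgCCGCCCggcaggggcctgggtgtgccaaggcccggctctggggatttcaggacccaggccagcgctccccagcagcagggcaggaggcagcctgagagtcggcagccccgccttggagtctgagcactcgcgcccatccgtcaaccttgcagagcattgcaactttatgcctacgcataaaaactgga
FUT9, chr6:96015724-96015973, plus strand: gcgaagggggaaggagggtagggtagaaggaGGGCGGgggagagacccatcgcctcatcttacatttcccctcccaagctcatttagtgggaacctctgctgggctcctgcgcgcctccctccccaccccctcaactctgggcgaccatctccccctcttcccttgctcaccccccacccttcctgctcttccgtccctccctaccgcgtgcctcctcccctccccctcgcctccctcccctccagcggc
ST8SIA3, chr18:57352307-57352556, plus strand: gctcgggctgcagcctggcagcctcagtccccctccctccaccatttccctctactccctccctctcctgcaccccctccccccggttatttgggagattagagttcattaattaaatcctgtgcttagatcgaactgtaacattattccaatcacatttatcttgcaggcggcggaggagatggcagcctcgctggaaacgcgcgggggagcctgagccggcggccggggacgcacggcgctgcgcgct
The first CHST8 start had 4 GC boxes, the other CHST8 start and FUT9 had 1 each and ST8SIA3 had 0, with a GC content of 81.6%, 63.6%, 66.8% and 60.4% in the order shown. GC boxes stood in 42.6% of the 35116 promoters of the table. The other motifs, searched on both strands, were the retinoid receptor half-site AGGTCA (12.1% of promoters), the antioxidant response core TGACNNNGC (10.9%), the AP-1 site TGANTCA (6.57%) and TATAAA (10.7%); the antioxidant core and the AP-1 site can overlap. That these letters were not in the windows says nothing of more distant sites.

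With CHST8 and FUT9 included, 10 of the 48 members (20.8%) had an unadjusted p under 0.05 in co-treatment, 5 higher and 5 lower, against 8.15% of all genes. In 12 of the 48 (25%), these 2 genes among them, the 3 treated and 3 control libraries did not overlap, 7 higher and 5 lower, against 14% of all genes. The median log2 fold change of the members was -0.05, and that of all genes 0.00.

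The remaining 8 had an unadjusted p under 0.05 and did not pass the adjusted threshold. B4GALNT3, a LacdiNAc synthase, had a log2 fold change of 0.82 (adjusted p = 0.120, edgeR), with 8.40, 6.17 and 4.94 CPM in the controls against 11.4, 11.7 and 11.5. Its homologue B4GALNT4, far higher in level, was at -0.39 (adjusted p = 0.476, edgeR). ST3GAL1, which caps core 1 O-glycans, had 9.73, 6.02 and 4.44 CPM in the controls and 11.9, 13.1 and 14.7 with H2O2, a log2 fold change of 0.97 (adjusted p = 0.153, edgeR). ST3GAL6, which acts on N-acetyllactosamine, was at -0.32 (adjusted p = 0.450, edgeR); its antisense neighbour ST3GAL6-AS1 had 38 to 143 reads in a library, and the strand setting of the counting is not stated. ST8SIA4 was at 0.70 (adjusted p = 0.563, edgeR), at 0.848 to 1.88 CPM in the 6 libraries.

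The heparan sulfate 3-O-sulfotransferases had opposite signs. HS3ST5 had 3.69, 1.96 and 2.19 CPM in the controls and 5.83, 6.15 and 6.07 with H2O2, a log2 fold change of 1.20 ± 0.25 (SE), and missed the adjusted threshold (adjusted p = 0.0652, edgeR; 0.000246 to 0.319 over 17 alternatives). HS3ST2 had a log2 fold change of -1.58 ± 0.58 (adjusted p = 0.435, edgeR), on only 22 to 34 reads in the controls and 4 to 13 with H2O2. Without control 1 of this experiment, B4GALNT3, HS3ST5 and ST3GAL1 joined CHST8 and FUT9 and 5 members were called. For these 3 genes control 1 was the control nearest to the treated libraries.

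CHST12, a chondroitin 4-O-sulfotransferase, was the only member with an unadjusted p under 0.05 both in co-treatment and over the 6 pre-treatment libraries; without pre-treatment control 3, CHST8 and FUT9 were under it in both as well, each with the same sign in both. It had 37.04, 29.7 and 31.7 CPM in the co-treatment controls and 29.8, 23.4 and 22.6 CPM with H2O2, groups that overlap by 1 library. In the pre-treatment experiment it had 26.6, 32.9 and 27.1 CPM in the controls and 16.5, 22.7 and 18.4 CPM with H2O2, which do not overlap. The log2 fold changes were -0.38 ± 0.15 (adjusted p = 0.490) and -0.56 ± 0.18 (adjusted p = 0.332), neither past the adjusted threshold (edgeR).

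**Figure D3:**
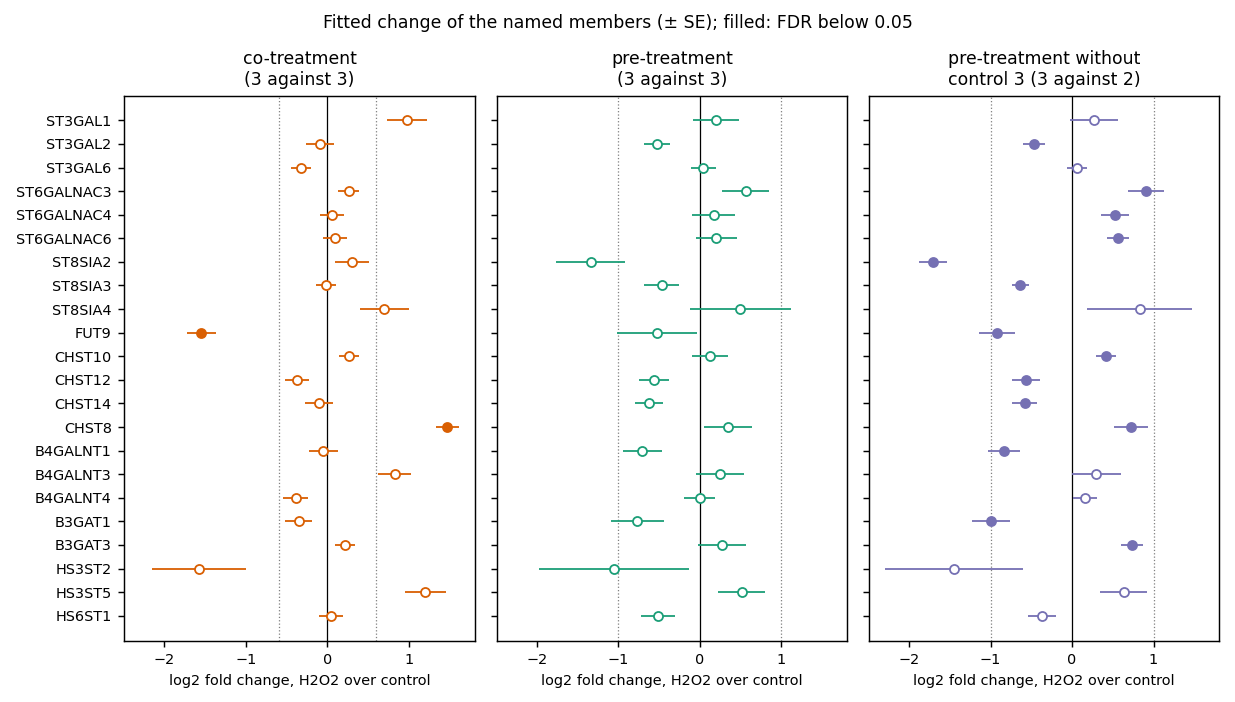
Fitted log2 fold change (H2O2 over control, ± SE) of 22 named members in co-treatment, in pre-treatment with all 6 libraries and in pre-treatment without control 3; filled points have an FDR below 0.05 and dotted lines mark the fold limits of 0.6 and 1. CHST8 and FUT9 are filled in co-treatment, none is in the 6-library pre-treatment fit, and 14 are without control 3; ST8SIA6, at 4.51 there, is not drawn.

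The pre-treatment experiment asked what H2O2 given before differentiation left behind 7 days later. Over all 6 libraries none of the 48 members tested was called (FDR below 0.05 and log2 fold change beyond 1, edgeR), against 0.0242% of the 24743 genes tested. Exact and DESeq2 tests of the same libraries called 1 each, ST8SIA6 and ST8SIA2, and in DESeq2 CHST14 also had an FDR below 0.05, with a log2 fold change of -0.65 (adjusted p = 0.0362). Of the 48, 8 (16.7%) had an unadjusted p under 0.05, 1 higher and 7 lower, against 11.2% of all genes, and in 12 (25%) the groups did not overlap, 3 higher and 9 lower, against 16.4% of all genes. The median log2 fold change was -0.07 over the members and -0.01 over all genes.

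In 5 members with an unadjusted p under 0.05 the pre-treated libraries were all below every control, although none passed the adjusted threshold over 6 libraries in edgeR. CHST14 had 37.8, 49.3 and 43.2 CPM in the controls and 28.0, 29.2 and 25.7 CPM after H2O2, a log2 fold change of -0.62 ± 0.17 (adjusted p = 0.320, edgeR). ST3GAL2, which sialylates gangliosides and O-glycans, had 96.7, 97.9 and 100.2 CPM in the controls, which were close to each other, and 68.1, 75.8 and 57.0 CPM after H2O2, at -0.53 ± 0.16 (adjusted p = 0.320, edgeR). HS6ST1 had 113, 105 and 131 CPM against 86.3, 93.5 and 61.0 CPM, at -0.51 ± 0.21 (adjusted p = 0.411, edgeR; -0.37 ± 0.17 and 0.147 without control 3). B4GALNT1 had 65.6, 78.1 and 47.9 CPM against 39.1, 47.2 and 28.8 CPM, at -0.70 ± 0.24 (adjusted p = 0.338, edgeR). Against control 3 alone, an alternative added after the data were seen, these 4 genes and CHST12 had log2 fold changes of -0.65, -0.59, -0.72, -0.33 and -0.51. All 5 were named here because every treated library was below every control, control 3 included. The choice thus set the sign, which is no separate evidence.

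ST8SIA2, the polysialyltransferase, behaved otherwise. At chr15:92937111-93011958 on the plus strand, it had 67.4 and 66.7 CPM in controls 1 and 2, 18.7 CPM in control 3, and 15.8, 19.3 and 23.7 CPM after H2O2. Control 3 thus lay inside the range of the treated libraries, and the groups overlap. With all controls the log2 fold change was -1.34 ± 0.43 (adjusted p = 0.324, edgeR); without control 3 it was -1.70 ± 0.17, or 3.26-fold lower, with an adjusted p of 0.000996; with control 3 as the only control it was 0.06 (adjusted p = 0.926). The difference therefore rested on controls 1 and 2, the libraries with the most reads outside genes.

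B3GAT1 showed the same arrangement, with 51.0, 87.1 and 33.8 CPM in controls 1 to 3 and 26.7, 32.9 and 39.3 CPM after H2O2 (log2 fold change -0.76 ± 0.32, adjusted p = 0.431 over 6 libraries, edgeR). Against control 3 alone its log2 fold change was -0.05.

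ST8SIA6, which adds sialic acid to sialylated O-glycans, had the largest fold change among the members tested, on very few reads. Its 6 pre-treatment libraries held 2, 0 and 4 reads in the controls and 69, 24 and 25 reads after H2O2. For ratios, the reads of each group were summed and divided by its reads on genes, scaled by the TMM factors. The treated libraries were 13.4 times the controls (exact 95% interval of the counts 5.97 to 37.2, counting error only). The fitted log2 fold change was 3.69 ± 0.85 (adjusted p = 0.320, edgeR). Without control 3 the ratio was 24.3 (6.59 to 203, exact, counting error only) and the fitted log2 fold change 4.51 ± 0.94 (adjusted p = 0.0115, edgeR). The gene passed the filter on low counts through the treated libraries alone, so that it was bound to differ among the genes tested. In co-treatment it did not pass the filter, with 1, 2 and 1 reads in the controls and 2, 13 and 26 with H2O2, a ratio of 9.41 (3.41 to 36.2, exact, counting error only). ST8SIA6-AS1, on the other strand, had 5 reads in all libraries together.

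Without control 3, the 3 treated libraries were compared with controls 1 and 2. Of 52 members tested, 15 had an FDR below 0.05, 7 higher (13.5%) and 8 lower (15.4%), against 13.2% and 12.8% of the 26350 genes tested, so the members' share was near that of all genes. The count fell to 1, ST8SIA2, when control 2 was left out too, to 5 without treated replicate 1 and to 10 without treated replicate 2. An unadjusted p under 0.05 was found in 17 of the 52 (32.7%), against 40.5% of all genes, and the groups did not overlap in 27 (51.9%), against 57.2% of all genes; the median log2 fold change was 0.01 over the members and over all genes. Past the fold limit of 1 as well were ST8SIA2 and ST8SIA6, 2 of 52, against 11.2% of all genes. In another scaling, by library size alone, 12 members passed the FDR and the split was 2 higher and 10 lower; that scaling moved the median of all genes to -0.21 on the log2 scale.

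The 7 that rose in this fit included 3 of the 7 tested ST6GAL and ST6GALNAC genes, all of them ST6GALNAC genes, whose enzymes act on O-glycans and gangliosides. ST6GALNAC3 was at 0.91 ± 0.22 (adjusted p = 0.0209, edgeR), with 37.1 and 21.3 CPM in controls 1 and 2, 48.9 in control 3 and 57.9, 49.1 and 49.2 CPM after H2O2. ST6GALNAC6 was at 0.56 ± 0.13 and ST6GALNAC4 at 0.53 ± 0.17 (adjusted p = 0.0182 and 0.0488, edgeR). ST6GALNAC6 had 41.0, 37.2 and 66.9 CPM in controls 1 to 3 and 58.7, 57.7 and 48.5 CPM after H2O2, and ST6GALNAC4 had 14.1, 13.4 and 23.5 against 20.0, 20.6 and 15.9. In all 3 genes controls 1 and 2 were low and control 3 was near or above the treated libraries. With control 3 included, ST6GALNAC3, ST6GALNAC4 and ST6GALNAC6 were at 0.56, 0.17 and 0.20 on the log2 scale (adjusted p = 0.514, 0.819 and 0.775, edgeR).

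The others that rose were ST8SIA6, CHST8, CHST10 and B3GAT3. CHST8 had 24.8, 15.9 and 36.0 CPM in controls 1 to 3 and 34.0, 34.2 and 27.8 CPM after H2O2, a log2 fold change of 0.72 ± 0.21 (adjusted p = 0.0345, edgeR) without control 3 and 0.34 ± 0.29 (adjusted p = 0.680) with it. B3GAT3 had 47.6, 40.9 and 87.6 CPM against 71.0, 77.3 and 62.4 CPM, at 0.74 ± 0.14 without control 3 (adjusted p = 0.00742, edgeR). CHST10 had 38.2, 34.5 and 56.2 CPM against 48.2, 46.6 and 44.1 CPM, at 0.42 ± 0.12 (adjusted p = 0.0359, edgeR). With control 3 included, B3GAT3 was at 0.28 and CHST10 at 0.13 (adjusted p = 0.742 and 0.834, edgeR). In each of these 3 genes control 3 was the highest of the 6 libraries.

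The 8 that fell were ST8SIA2, ST8SIA3, B3GAT1, FUT9, B4GALNT1, CHST12, CHST14 and ST3GAL2. ST8SIA3, a brain sialyltransferase at chr18:55019788-55038962 on the plus strand, had 189.7, 201 and 118 CPM in controls 1 to 3 and 114, 117 and 128 CPM after H2O2, at -0.63 ± 0.11 without control 3 (adjusted p = 0.00561, edgeR) and -0.47 ± 0.21 with it (adjusted p = 0.461). FUT9 had 59.3, 103 and 18.5 CPM against 35.1, 47.8 and 39.3 CPM, so that control 3 was the lowest library and controls 1 and 2 the highest. Its log2 fold change was -0.92 ± 0.22 without control 3 (adjusted p = 0.0190, edgeR) and -0.52 ± 0.49 with it (adjusted p = 0.705). B3GAT1 was at -0.998 ± 0.23 and B4GALNT1 at -0.83 ± 0.19 (adjusted p = 0.0166 and 0.0168, edgeR). CHST14, CHST12 and ST3GAL2 were at -0.58 ± 0.15, -0.56 ± 0.17 and -0.47 ± 0.13 (adjusted p = 0.0229, 0.0436 and 0.0350, edgeR).

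**Figure D4:**
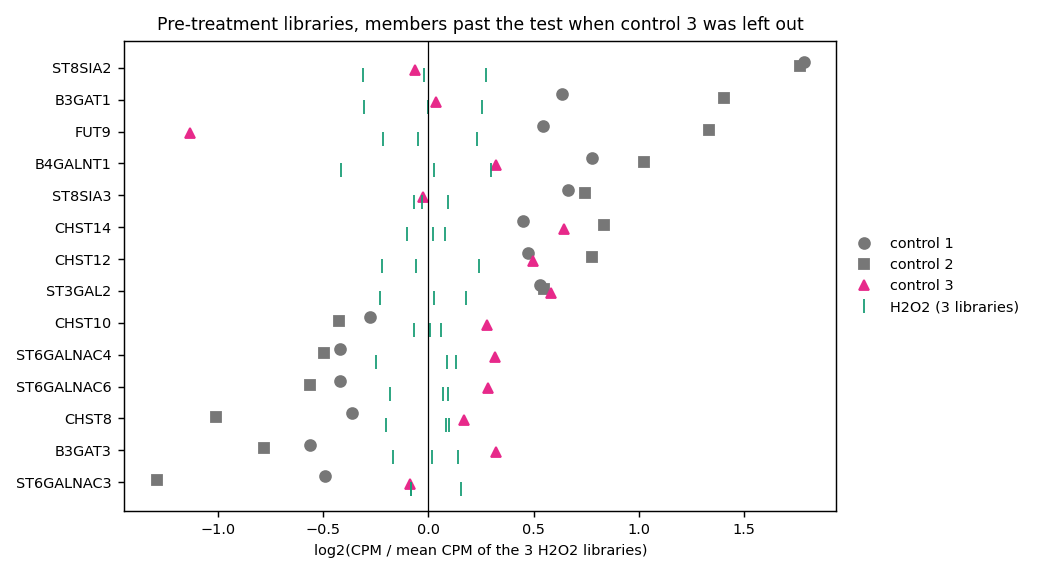
Level of each pre-treatment library relative to the mean of the 3 H2O2 libraries, as log2 of the CPM ratio, for 14 of the 15 members with an FDR below 0.05 when control 3 was left out; ST8SIA6 is not drawn because control 2 had 0 reads. Control 3 (triangles) sits with controls 1 and 2 for CHST14, CHST12 and ST3GAL2 and is nearer to the H2O2 mean for the other 11.

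On a log2(CPM + 1) scale, control 3 lay nearer to the treated mean than to the mean of controls 1 and 2 for 11 of these 15 members. The same held for 87.8% of all 6871 genes with an FDR below 0.05 in this fit. The exceptions were CHST12, CHST14 and ST3GAL2, in which every treated library was below control 3, and ST8SIA6. The latter gene passed the filter through its treated libraries alone and was bound to differ.

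Whether the effect of H2O2 differed between the experiments was tested as the difference of the log2 fold changes, co-treatment minus pre-treatment. Over all 12 libraries none of 49 members had an FDR below 0.05 (edgeR; 0.0287% of 24407 genes did, and DESeq2 gave 0 members). At an unadjusted p under 0.05 there were 5, against 8.94% of all genes. They were CHST8 at 1.15 ± 0.33, ST8SIA2 at 1.68 ± 0.54, CHST3 at 0.54 ± 0.23, HS6ST1 at 0.58 ± 0.26 and CHST14 at 0.55 ± 0.25, in edgeR with adjusted p of 0.458 to 0.557. For FUT9, which passed the test in co-treatment, the difference was -0.99 ± 0.58 (adjusted p = 0.614, edgeR), so a difference between the experiments was not shown.

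Without pre-treatment control 3, 2 of 52 members passed, ST8SIA2 at 2.06 ± 0.31 (adjusted p = 0.00681) and ST8SIA3 at 0.67 ± 0.16 (adjusted p = 0.0251, edgeR), against 8.02% of 25668 genes. In co-treatment ST8SIA2 had 34.6, 19.7 and 20.1 CPM in the controls and 25.7, 33.1 and 33.0 CPM with H2O2 (log2 fold change 0.31 ± 0.21, adjusted p = 0.799), and ST8SIA3 had 147, 137 and 121 CPM against 135, 138 and 127 CPM (-0.02 ± 0.12, adjusted p = 0.991). Pre-treatment controls 1 and 2 were thus above all 6 co-treatment libraries for both genes. Under the 17 alternatives tried for each, ST8SIA2 passed in 17 and ST8SIA3 in 9. CHST8, which rose in co-treatment, missed the threshold in this test at 0.80 ± 0.25 (adjusted p = 0.0597, edgeR).

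The donors, acceptors and carriers of the same glycans were followed in 6 lists. In co-treatment 1 of their 76 genes was called (65 could be tested, and 0.598% of all genes were called), SDC2, a heparan sulfate proteoglycan of the cell surface. It had 70.2, 79.4 and 94.2 CPM in the controls and 46.1, 35.3 and 36.1 CPM with H2O2, a log2 fold change of -1.05 ± 0.15 (adjusted p = 0.00749, edgeR). It was not called without treated replicate 2 or 3, or in the fits over both experiments. In pre-treatment SDC2 was at 0.49 ± 0.33 over 6 libraries and 0.79 ± 0.30 without control 3 (adjusted p = 0.604 and 0.0842, edgeR). The difference, co-treatment minus pre-treatment, was -1.53 ± 0.38 over 12 libraries and -1.79 ± 0.35 without pre-treatment control 3 (adjusted p = 0.381 and 0.0131, edgeR). None of the genes that make or carry CMP-sialic acid, GDP-fucose or PAPS was called in co-treatment. The 9 tested of sialic acid supply and removal had a median log2 fold change of 0.12. It was 0.02 for the 10 of fucose supply, protein O-fucosylation and fucose removal. For the 14 tested of sulfate supply, other sulfotransferases and sulfatases it was 0.03.

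NCAM1, the main carrier of polysialic acid, had 436, 426 and 194 CPM in pre-treatment controls 1 to 3 and 241, 221 and 269 CPM after H2O2, so that control 3 was the lowest of the 6 libraries, as for FUT9. Its log2 fold change was -0.49 ± 0.29 with all controls (adjusted p = 0.560) and -0.75 ± 0.12 without control 3 (adjusted p = 0.00489, edgeR). In co-treatment it was -0.07 ± 0.18 (adjusted p = 0.970), with 234 to 406 CPM in the controls and 285 to 295 CPM with H2O2.

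None of the 76 was called over the 6 pre-treatment libraries (edgeR; 12 of 66 tested had an unadjusted p under 0.05, against 11.2% of all genes, and the exact test and DESeq2 each called NDST1 and XYLT1). Without control 3, 4 of 67 were called, against 11.2% of all genes. XYLT1, which starts proteoglycan chains, had 400.4, 452 and 171 CPM in controls 1 to 3 and 129, 140.2 and 74.5 CPM after H2O2, at -1.82 ± 0.24 without control 3 (adjusted p = 0.00222, edgeR). NDST1, the N-deacetylase and N-sulfotransferase that begins heparan sulfate modification, had 260.1, 309.9 and 151 CPM against 97.6, 115 and 120.3 CPM, at -1.29 ± 0.13 (adjusted p = 0.00105, edgeR). For both genes each treated library was below each of the 3 controls, and over all 6 libraries they were at -1.54 ± 0.38 and -1.08 ± 0.26 (adjusted p = 0.320 for both, edgeR). SDC3 was at -1.03 ± 0.22 and the glypican GPC5 at 1.04 ± 0.32 without control 3 (adjusted p = 0.0119 and 0.0438, edgeR) and at -0.82 ± 0.30 and 1.02 ± 0.32 over 6 libraries (adjusted p = 0.370 and 0.322), GPC5 at 1.02 to 3.13 CPM. Without control 3, 16 of the 67 had an FDR below 0.05, 9 higher and 7 lower, against 26.1% of all genes. By list, the 3 of 17 proteoglycan chain genes (XYLT1, EXTL3 and CHSY1) and the 1 of 5 glycolipid core genes were lower. The 3 of 10 of fucose supply, protein O-fucosylation and fucose removal were higher: TSTA3, FPGT and the fucosidase FUCA2. The 2 of 9 of sialic acid supply and removal, NANS and SLC35A1, were higher. Of 4 genes of sulfate supply and other sulfotransferases, PAPSS1, PAPSS2 and the sulfotransferase TPST2 were higher and NDST1 was lower. Of 3 carriers 1 was higher.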

How the data were processed

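Total RNA of 12 SH-SY5Y samples was sequenced after ribosomal RNA depletion with a stranded kit. The deposited values are raw read counts per gene: the authors checked reads with FastQC 0.11.8, trimmed them with Cutadapt 2.10, aligned them to hg19 with HISAT2 2.1.0 and counted them with htseq-count of HTSeq 0.7.2. The annotation version and the strand setting of the counting are not given in the sources used here. The 2 deposited tables of the authors' own comparisons hold fold changes and p-values and were not used. Rows that name no gene (reads outside genes, ambiguous, of low quality, unaligned or not unique) were kept out of library sizes and tests; reads outside genes alone came to 0.200 to 0.830 for each read on a gene.

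Counts were tested with edgeR 4.0.16 (quasi-likelihood test, TMM factors, R 4.3.3) on all genes that reached 5 counts, scaled to the smallest library, in at least 3 libraries (2 for the 5-library fit). P-values were adjusted over all genes tested by Benjamini-Hochberg. A gene was called at an FDR below 0.05 with a log2 fold change beyond 0.6 in co-treatment or 1 in pre-treatment; the difference between experiments used the FDR alone. CPM in the text share 1 TMM scale over the 12 libraries, and fold changes come from the fit of each comparison. Exon lengths and positions came from GENCODE v44 lifted to GRCh37. The steps were tested on simulated counts. Alternatives used DESeq2 1.42.0, limma 3.58.1 (voom), edgeR's exact test, other scalings and filters, the replicate number as a block, and each library left out.

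Full values were given for members with an FDR below 0.05 in any comparison or an unadjusted p under 0.05 in both experiments, and fold changes for members with an unadjusted p under 0.05 in either; single libraries of further members are shown where they bear on a call. The members, pathway lists and tests were chosen with earlier results of these data known. Replicates differed beyond counting error in every pair, so none was merged in the tests. Only the read ratios of ST8SIA6 summed the libraries of a group, and their intervals leave out the spread between libraries. Same-numbered control and treated libraries did not deviate together.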

Additional observations from a re-analysis of the deposited data

Results flagged for a closer look

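The effect of H2O2 differed between the experiments for 2 members when pre-treatment control 3 was left out. The log2 fold change of ST8SIA2 was higher in co-treatment than in pre-treatment by 2.06 ± 0.31 (SE, adjusted p = 0.00681, edgeR; 7.85e-17 to 0.0331 over 17 alternatives). That of ST8SIA3 was higher by 0.67 ± 0.16 (adjusted p = 0.0251, edgeR; 0.00297 to 0.142 over 17 alternatives, 9 of them below 0.05). With all 12 libraries the differences were 1.68 ± 0.54 and 0.48 ± 0.25 (adjusted p = 0.511 and 0.582, edgeR). Both rest on pre-treatment controls 1 and 2, at 67.4 and 66.7 CPM for ST8SIA2 and 189.7 and 201 CPM for ST8SIA3, which also held the most reads outside genes, 0.800 and 0.830 per read on genes; the part of this in the differences was not tested.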

How the results depend on the processing

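In co-treatment 2 members were called, and 5 with the exact test, with DESeq2 and with no filter on low counts (B4GALNT3, HS3ST5 and ST3GAL1 in addition each time), while 1 fit over both experiments called 0, and without pre-treatment control 3 it called 2 (added after seeing the data). Leaving out 1 library gave 2 to 5, the 5 without control 1. Over the 6 pre-treatment libraries 0 were called, and 1 with the exact test (ST8SIA6), with DESeq2 (ST8SIA2) and with no filter (ST8SIA6); leaving out 1 library gave 0 to 2, the 2 without control 3. Against control 3 alone, also added after seeing the data, the log2 fold change of ST8SIA2 was 0.0552. It was the only reversed sign among the 8 members followed in this fit, those with an unadjusted p under 0.05 over the 6 libraries. Outside these 8, control 3 lay beyond all treated libraries, opposite to controls 1 and 2, for FUT9, CHST8, CHST10, B3GAT3, ST6GALNAC4 and ST6GALNAC6. These had an FDR below 0.05 without control 3. The same position was seen for ST3GAL3, FUT2 and CHST4, which did not pass that FDR. FUT2 had 1.844 CPM in control 3 against 1.854 in the lowest treated library, and CHST4 had 3 reads in control 3. Without control 3 the count of 2 became 4 with upper-quartile factors, 5 with library size alone, 4 with no filter and 15 with no fold limit, and 1 to 7 with a further library left out (1, ST8SIA2, without control 2, 7 without control 1 and 4 without treated replicate 2). These 2 scalings moved the median of all genes to -0.104 and -0.208.

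The difference between experiments called 0 members over 12 libraries and 2 with no filter, with 0 to 2 when 1 library was left out (2 without pre-treatment control 3). Over 11 libraries it called 2, and 6 with no filter, with 1 to 6 when 1 more was left out: 6 without co-treatment control 1, and only ST8SIA2 without co-treatment control 2 or 3, co-treatment treated replicate 1 or 3, pre-treatment control 2 or pre-treated replicate 1 or 2.

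With the replicate block the counts were 3 in co-treatment, 0 and 4 in pre-treatment with and without control 3, and 0 and 4 for the difference; same-numbered libraries had residual correlations of -0.279 to 0.0295, so the numbers were not taken to pair the libraries. Of the values of single members, 329 under other settings kept their direction and side of the threshold, 15 lost and 15 gained significance; with a library left out these were 154, 41 and 10. The cause of these shifts was not tested. Of the 63 members, 9 had too few reads for any fit, and a change in them was not detectable at this depth.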

Other observations

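Some members and pathway genes were without usable signal. The 9 members tested in no fit were B4GALNT2, CHST2, FUT3, HS3ST1, HS3ST3A1, HS3ST3B1, HS3ST4, HS3ST6 and ST6GALNAC1. NEU1, the lysosomal sialidase, NEU2 and B3GALT4, which extends gangliosides, were listed at 0 in every library, although NEU3 had 21.7 CPM and B4GALT5 188 CPM in the co-treatment controls. Whether such a 0 reflects the cells or the way reads were aligned and counted was not tested, so these genes cannot be called silent.

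Other members had groups that did not overlap without reaching an unadjusted p of 0.05. In co-treatment CHST10 and ST6GALNAC3 were higher and CHST6 and FUT2 lower in all 3 treated libraries than in each control, and in pre-treatment ST6GALNAC3 and ST6GALNAC5 were higher and CHST3, CHST7, CHST11 and FUT1 lower.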
